A study of Homo sapiens with 12 samples.

Results

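The genes described here are 10 genes of the MHC class II pathway, taken as the rows of the deposited count table with the symbols CD74, CIITA, HLA-DRA, HLA-DRB1, HLA-DPA1, HLA-DPB1, HLA-DMA, HLA-DMB, HLA-DOA and RFX5. All 10 were among the 59653 gene symbols of the table. Total RNA was taken from human neurons that had been made from iPSCs (induced pluripotent stem cells) of IMR-90, an established fibroblast line, and each library came from cells given either a negative control siRNA (siNC, 6 libraries) or an siRNA against ZCCHC17 (siZCC, 6 libraries). All cells therefore share 1 genetic background, and all received an siRNA. Titles also carry the letters NPC, whose meaning the labels do not state. ZCCHC17 encodes a zinc-finger protein that binds RNA. The list was chosen by the fold changes of siZCC against siNC in these same libraries, where CD74 was already known to be low, so the values of siZCC against siNC below are a description of these genes and no independent test of them.

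MHC class II molecules are pairs of an alpha and a beta chain that carry peptides from the endosome to the cell surface, where CD4 T cells read them. CD74, the invariant chain, holds new class II pairs and fills their groove until proteases cut it down, HLA-DM exchanges the remaining fragment for peptide, and HLA-DO restrains HLA-DM. CIITA, a coactivator that does not itself bind DNA, turns the genes on from a platform of RFX5 and its partners, NF-Y and CREB on a conserved promoter module whose parts are called the X and Y boxes. The pathway is best known from B cells, dendritic cells and macrophages, and other cells can switch it on in response to interferon gamma.

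Promoters are shown because 9 of the 10 genes were lower in siZCC, so that the letters of the module can be looked for in them; both parts were found together in HLA-DRB1 and HLA-DOA, and the other 3 sequences carry marked letters of the Y box alone. Reference sequences came from RefSeq (GRCh38.p14), which held 11 promoter windows of 300 bases, each 250 before and 50 after a start, for 8 of the 10 genes; CIITA and HLA-DRA were not among them. Each sequence below is a stretch of 130 bases, ending 0 to 64 bases before the RefSeq start, that GENCODE v29 annotates as no exon of that gene, written 5′ to 3′ on the gene's strand. Capitals mark CCAAT or its reverse ATTGG, the core letters of the Y box that NF-Y binds, and GCAAC or its reverse GTTGC, letters found in many X boxes. The corresponding stretches of HLA-DMB and HLA-DPA1 held no marked letters and are not printed. Outside those stretches, their windows held CCAAT at -22 and GCAAC at -98 from the RefSeq start, respectively. Stretches of RFX5 are not printed either, although its window with CCAAT at -177 and -95 also held GCAAC at -20.
HLA-DRB1 (chr6:32589849-32589978, minus strand): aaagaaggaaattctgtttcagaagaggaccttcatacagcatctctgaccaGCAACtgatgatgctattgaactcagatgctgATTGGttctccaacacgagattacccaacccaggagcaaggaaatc
HLA-DOA (chr6:33009613-33009742, minus strand): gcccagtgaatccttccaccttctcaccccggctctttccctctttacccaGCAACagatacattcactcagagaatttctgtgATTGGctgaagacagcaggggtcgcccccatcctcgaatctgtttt
HLA-DMA (chr6:32953123-32953252, minus strand): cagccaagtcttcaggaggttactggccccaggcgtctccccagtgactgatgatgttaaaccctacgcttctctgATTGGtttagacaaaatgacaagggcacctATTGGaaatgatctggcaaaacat
HLA-DPB1 (chr6:33075796-33075925, plus strand): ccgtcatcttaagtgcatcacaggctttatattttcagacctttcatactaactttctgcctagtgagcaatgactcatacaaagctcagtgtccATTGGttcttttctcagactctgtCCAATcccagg
CD74 (chr5:150412930-150413059, minus strand): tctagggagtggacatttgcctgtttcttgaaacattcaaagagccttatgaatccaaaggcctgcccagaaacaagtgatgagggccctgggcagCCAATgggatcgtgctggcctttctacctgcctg

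In HLA-DRB1 the letters GCAAC and ATTGG began at -78 and -46 from the RefSeq start, and in HLA-DOA at -100 and -67. On either strand, CCAAT was found in 7 of the 11 windows of these genes and in 34.6% of all 35116 windows of the table. GCAAC was found in 6 of the 11 and in 33.6% of all windows. The combination of GCAAC with ATTGG starting 20 to 45 bases after it was found in 2 of the 11, those of HLA-DRB1 and HLA-DOA, and in 0.894% of all windows. The core of the interferon-stimulated response element was found in 1 of the 11 windows, of RFX5, and in 3.57% of all. These are matches of letters in a window, not measured binding.

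Total counts per library were 90755953 to 120023356 in siNC and 76115083 to 105389055 in siZCC. The target ZCCHC17 averaged 56.9 ± 2.49 in siNC and fell to 9.999 ± 0.507 in siZCC (SD, 6 libraries each), both in CPM, counts relative to the library total after TMM scaling. The neuron markers MAP2 and DCX were present in every library, but so were VIM and GFAP, which mark progenitors and astrocytes, so the cultures were not of neurons alone by these markers. IL1B, a cytokine gene, split the libraries. In siNC replicates 2, 3 and 6 and in siZCC replicates 1, 4 and 5 its raw count was above 100, with 449 the lowest of these, and in the other 6 libraries 12 was the highest. These sides of the split were read from the data and are not groups of the study.

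The level of each gene per length, in CPM per kilobase of annotated exon, set the scale of the pathway in these cultures. RFX5 was far above the rest, at 15.2 in siNC, and is a DNA-binding factor found in most cell types. HLA-DRA, the alpha chain of HLA-DR, followed at 5.15 and CD74 at 3.70, and their ranges over the 6 siNC libraries overlapped. HLA-DMA stood at 0.833, HLA-DRB1 at 0.820 and HLA-DPB1 at 0.738, neighbours whose ranges overlapped, and HLA-DPA1 at 0.335. CIITA was at 0.186, HLA-DMB at 0.120 and HLA-DOA at 0.108, each overlapping its neighbour. Exon lengths join all annotated transcripts of a gene, 20757 bases for CIITA, so genes with long, rarely used exons are placed too low. HLA-DRB1 reads can be lost to, or shared with, other HLA-DRB genes and alleles unlike the reference, so its place beside HLA-DRA is uncertain.

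**Figure D1:**
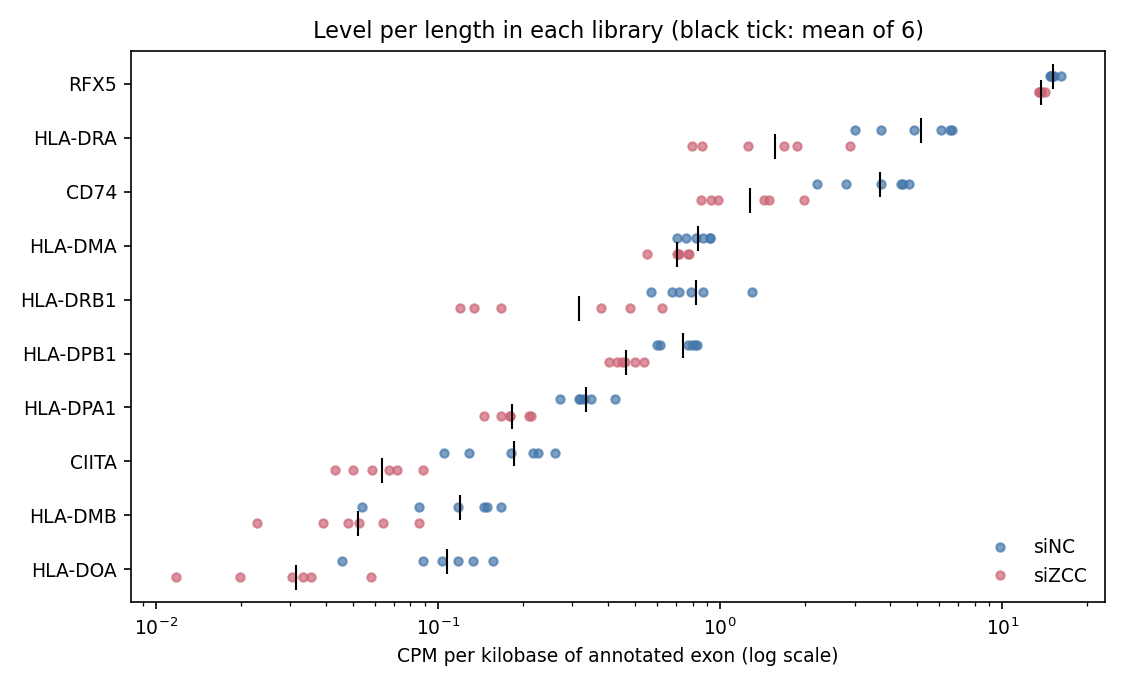
Level of each gene in CPM per kilobase of annotated exon (log axis), 1 point per library, 6 siNC and 6 siZCC, with a black tick at each mean. RFX5 lies above all others at 15.2 in siNC, and HLA-DRA and CD74 lie above the other class II genes.

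In the knockdown libraries most of the 10 genes were lower, to unequal extents. The coactivator CIITA was at 34.3% of its siNC level, the invariant chain CD74 at 34.9% and HLA-DRA at 30.8%, while HLA-DMA was at 84.7% and RFX5 at 90.9%. In edgeR's quasi-likelihood test over all 24671 genes kept by the filter, 9 of the 10 genes fell, 0 rose, and HLA-DMA did not pass; over all genes, 10.8% were called lower and 22.2% were called in either direction. The median log2 fold change of the 10 genes was -1.24, against -0.0016 over all genes tested. The groups did not overlap in 6 of the 10 genes, which were CD74, CIITA, HLA-DRA, HLA-DPA1, HLA-DPB1 and RFX5, against 4.50% of all genes that were lower without overlap and 9.74% that were apart in either direction. Called and at least 2-fold lower were 6 of the 10, against 0.207% of all genes. Since these genes were chosen on this contrast, nothing is read from these shares. HLA-DOA reached the filter's 0.0997 CPM in 4 of 6 siZCC libraries and passed it through siNC. In bulk libraries, fewer cells of a type and less RNA per cell cannot be told apart.

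**Figure D2:**
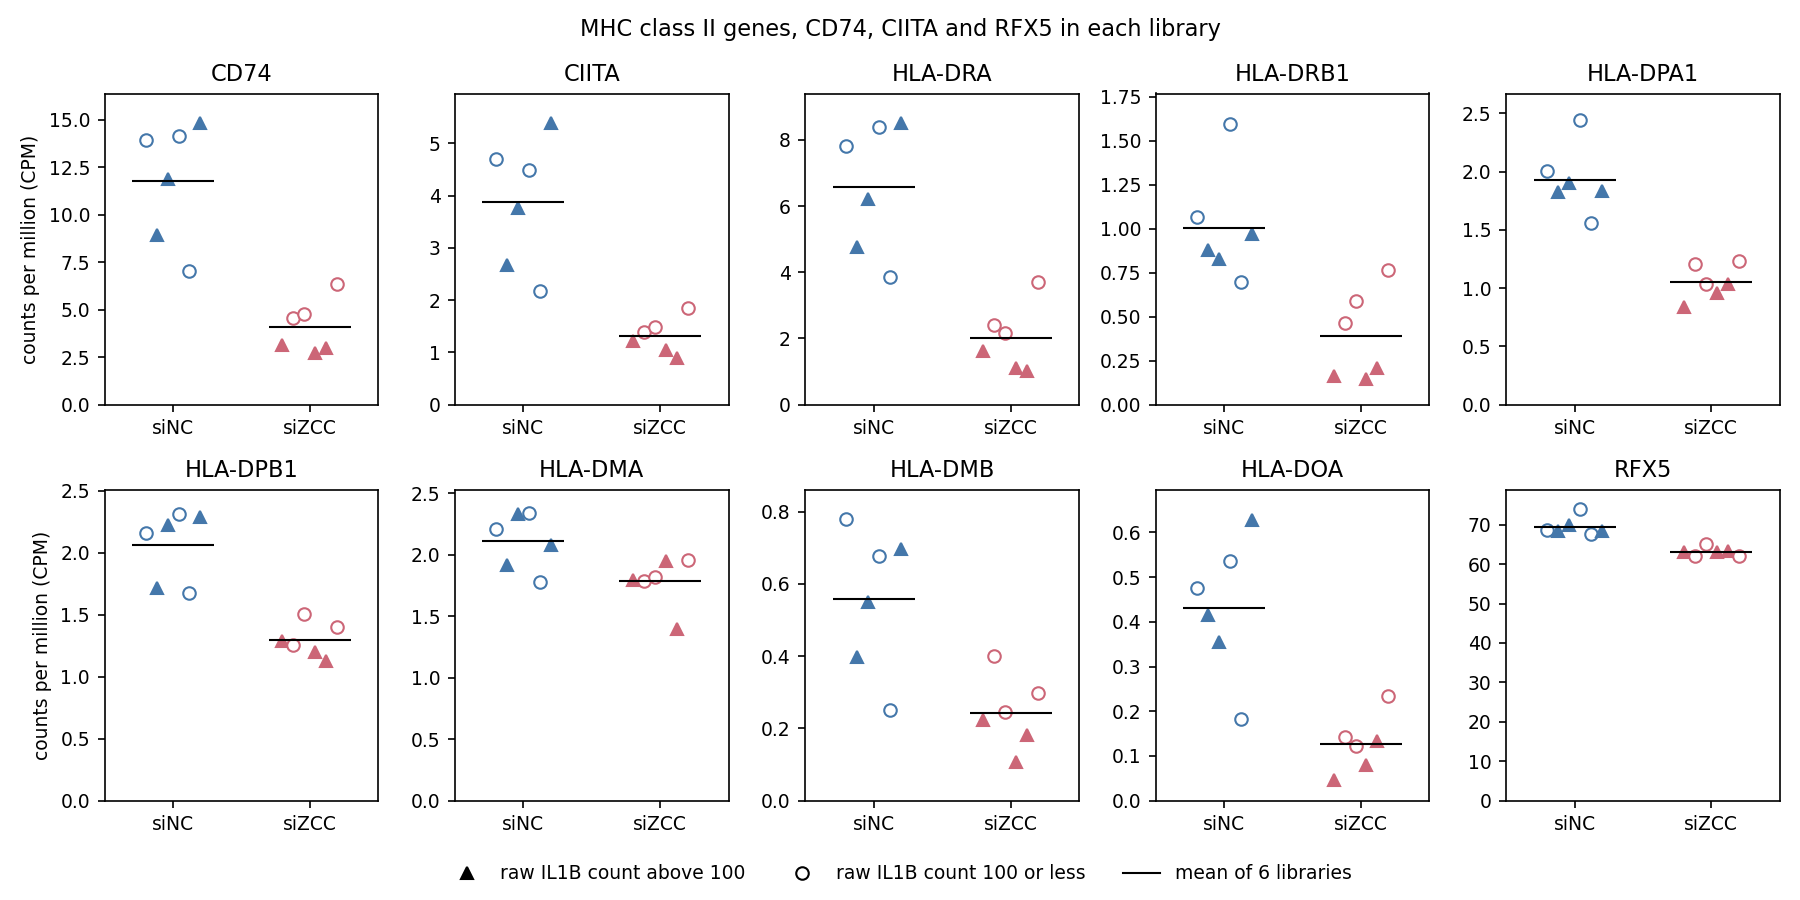
CPM of each gene in each library by siRNA group; filled triangles are libraries with a raw IL1B count above 100, open circles the others, and lines are means of 6. Every siZCC point of CD74, CIITA and HLA-DRA lies below every siNC point, while those of HLA-DMA overlap.

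The activators were CIITA and RFX5. CIITA (chr16:10866222-10943021) ran from 2.18 to 5.39 CPM in siNC (median 4.13) and from 0.899 to 1.85 CPM in siZCC (median 1.31). The highest siZCC library, replicate 6, was still below the lowest siNC library, replicate 5. Its log2 fold change was -1.54 (SE 0.208), on 261 to 627 counts per library in siNC and 74 to 174 in siZCC. The locus overlaps DEXI and an antisense gene on the other strand, and AC133065.3 on its own strand over 2378 bases. The library kit keeps strand, but whether the authors counted by strand is not given in the sources used here. RFX5 (chr1:151340640-151347357) ran from 67.6 to 73.9 CPM in siNC (median 68.6) and from 62.1 to 65.1 CPM in siZCC (median 63.1). The groups were apart but close, with a log2 fold change of -0.14 (SE 0.0275). Antisense genes on the other strand share 1319 and 391 bases with the span of RFX5, which could matter if strand was not used in counting.

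CD74 (chr5:150401637-150412929) ran from 7.04 to 14.8 CPM in siNC (median 12.9) and from 2.72 to 6.33 CPM in siZCC (median 3.85). The log2 fold change was -1.52 (SE 0.204). The ratio of CD74 to CIITA, in CPM, ran from 2.75 to 3.33 over the siNC libraries and from 2.57 to 3.43 over the siZCC libraries. The proportion of the invariant chain transcript to that of its activator thus overlapped between the groups, while the level of each fell.

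Of the HLA-DR and HLA-DP chains in the list, the estimates were larger for HLA-DR. HLA-DRA (chr6:32439842-32445046) ran from 3.86 to 8.49 CPM in siNC (median 7.01) and from 1.02 to 3.70 CPM in siZCC (median 1.88). The highest siZCC value was just under the lowest siNC value, and the log2 fold change was -1.70 (SE 0.260). HLA-DRB1 (chr6:32578769-32589848), a beta chain partner of HLA-DRA, ran from 0.700 to 1.597 CPM in siNC (median 0.927) and from 0.147 to 0.763 CPM in siZCC (median 0.336). Here siZCC replicate 6 reached above the lowest siNC library, siNC replicate 5, and the log2 fold change was -1.32 (SE 0.310). HLA-DRB1 had the widest spread of the 10 genes in siZCC, with a coefficient of variation of 65.8%.

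Both chains of HLA-DP fell, with smaller estimates; the difference from HLA-DR was not tested. HLA-DPA1 (chr6:33064569-33080775) ran from 1.56 to 2.44 CPM in siNC (median 1.87) and from 0.838 to 1.23 CPM in siZCC (median 1.03), a log2 fold change of -0.86 (SE 0.113). HLA-DPB1 (chr6:33075926-33087201) ran from 1.68 to 2.31 CPM in siNC (median 2.19) and from 1.13 to 1.504 CPM in siZCC (median 1.27), a log2 fold change of -0.66 (SE 0.103). Both genes were lower in every siZCC library than in any siNC library. They lie head to head on opposite strands, and their spans, introns included, share 4850 bases. How much of this is exon was not measured. If strand was not used in counting, some of their reads may not be told apart.

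The peptide-exchange genes differed from each other. HLA-DMA (chr6:32948613-32969094), the alpha chain of HLA-DM, ran from 1.78 to 2.34 CPM in siNC (median 2.15) and from 1.397 to 1.96 CPM in siZCC (median 1.81). The groups overlapped, and the log2 fold change of -0.24 (SE 0.0933) did not pass over all genes (edgeR's quasi-likelihood test, adjusted p 0.0755); without siNC replicate 5 it was -0.28 and passed (adjusted p 0.0361). HLA-DMB (chr6:32934629-32941070), the beta chain, ran from 0.250 to 0.779 CPM in siNC (median 0.614) and from 0.107 to 0.399 CPM in siZCC (median 0.235), with siZCC replicates 2 and 6 above the lowest control and a log2 fold change of -1.16 (SE 0.283). Both share bases with AL645941.2, an annotated gene on the same strand that spans part of each, so some of their reads may be counted elsewhere. The span of HLA-DMA, introns included, also shares 435 bases with BRD2 on the opposite strand, which could matter if strand was not used in counting. HLA-DOA (chr6:33004178-33009612), the alpha chain of HLA-DO, ran from 0.183 to 0.628 CPM in siNC (median 0.445) and from 0.0472 to 0.233 CPM in siZCC (median 0.128). That is 22 to 73 counts against 4 to 22, so counting error is large in siZCC, and its log2 fold change was -1.73 (SE 0.313). The difference in log2 fold change between the HLA-DM chains was not tested.

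Over the 9 genes called, adjusted p from the same whole-table edgeR fit ran from 5.33e-05 for HLA-DPA1 to 0.00737 for HLA-DMB. These values come from the contrast through which the list was drawn up and are given as a description.

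The next question was whether these genes followed the IL1B-high libraries. In siZCC, 6 of the 10 genes were lower in each of the 3 IL1B-high libraries than in each of the 3 others, against 11.1% of all genes, and 0 were higher in each, against 10.4% of all genes. In siNC, 0 of 10 were lower and 0 were higher in that way, against 2.52% and 2.98% of all genes. The 6 genes were CD74, CIITA, HLA-DRA, HLA-DRB1, HLA-DPA1 and HLA-DMB.

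In siZCC, CD74 stood at 3.13, 2.72 and 2.96 CPM in the IL1B-high libraries and at 4.56, 4.77 and 6.33 CPM in the others. HLA-DRB1 stood at 0.165, 0.147 and 0.206 CPM against 0.466, 0.591 and 0.763 CPM. HLA-DRB1 was the more clearly separated of these, while the sides of HLA-DPA1 nearly touched, with 1.03 CPM the highest IL1B-high value and 1.04 CPM the lowest of the others. In siNC, CD74 stood at 8.92, 11.9 and 14.8 CPM in the IL1B-high libraries and at 13.95, 14.2 and 7.04 CPM in the others, so both the highest and the next to lowest control were IL1B-high. Total counts moved with the split in siZCC, with 76115083 to 85339499 in the IL1B-high libraries and 90308230 to 105389055 in the others. After a single random thinning of all libraries to 76115083 counts, chosen after seeing this, 5 of the 6 genes kept the separation and HLA-DMB did not. Thinning evens out the totals only, so it cannot separate the split from other differences between these libraries. ZCCHC17 itself ran from 9.71 to 9.93 CPM in the IL1B-high siZCC libraries and from 9.37 to 10.6 CPM in the others.

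Refitting siZCC against siNC on each side, with 3 libraries per group, gave negative log2 fold changes for all 10 genes on both sides. The estimate was larger among the IL1B-high libraries for 9 of the 10, all but RFX5. CD74 was at -2.02 (SE 0.165) among the IL1B-high libraries and at -1.16 (SE 0.230) among the others. HLA-DRA was at -2.38 (SE 0.225) and -1.27 (SE 0.271), and CIITA at -1.91 (SE 0.239) and -1.26 (SE 0.253). HLA-DRB1 showed the widest gap, at -2.36 (SE 0.211) and -0.87 (SE 0.286). On the IL1B-high side 8 of the 10 fell, against 3.98% of all genes called lower there, and on the other side 5, against 2.95%. Those 5 were CD74, CIITA, HLA-DRA, HLA-DPA1 and HLA-DPB1. The genes were chosen on this contrast, so nothing is read from these counts. The difference between the sides was not tested. With the side as a block, CD74 was at -1.56 and CIITA at -1.56, and the same number of 9 genes passed.

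**Figure D3:**
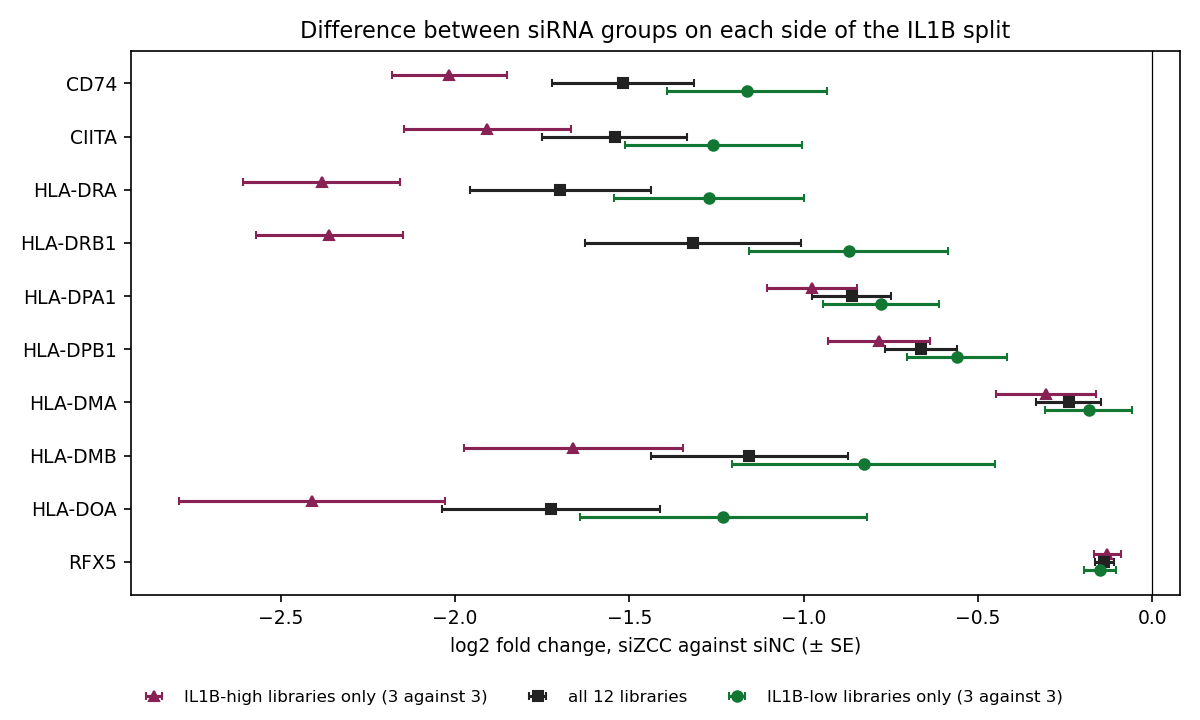
Log2 fold change of siZCC against siNC with its SE for each gene, among the 3 against 3 IL1B-high libraries (triangles), all 12 libraries (squares) and the 3 against 3 others (circles). All estimates lie below 0, and those of CD74 are -2.02, -1.52 and -1.16.

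The next values describe how these genes varied together within the groups. The comparison of siRNAs uses the size of that variation for its SE, so they are not apart from it. Among the 6 siNC libraries, CIITA and CD74 had a Pearson r of 0.991 in log2 CPM (exact permutation p 0.00556, adjusted 0.0250 over 9 relations, two-sided) and a Spearman rho of 0.943 (exact permutation p 0.0167, adjusted 0.05001). Without siNC replicates 2 and 5, the 2 libraries farthest from the median of CIITA, r was 0.949. For HLA-DRA r was 0.987 (exact permutation p 0.00833, adjusted 0.0250; rho 0.943, p 0.0167, adjusted 0.05001) and 0.882 without those libraries. For HLA-DMB r was 0.965 (exact permutation p 0.00833, adjusted 0.0250; rho 0.943, p 0.0167, adjusted 0.05001) and 0.756 without them. These 3 genes were therefore high and low in much the same control libraries as CIITA. By Pearson's r they passed after adjustment, and by rho they lay at the threshold of 0.05, not under it. The pattern was not limited to class II genes, and the share of all genes with it was not counted. Like CIITA, CD44 and SNAI2 were highest in siNC replicate 6 (219 and 9.86 CPM) and lowest in siNC replicate 5 (141 and 7.32 CPM).

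The other relations with CIITA in siNC did not pass after adjustment by either measure. HLA-DOA had r of 0.873 (exact permutation p 0.0361, adjusted 0.0700; rho 0.886, p 0.0333, adjusted 0.0750) and 0.943 without those 2 libraries. HLA-DPB1 had r of 0.936 (exact permutation p 0.0389, adjusted 0.0700; rho 0.714, p 0.136, adjusted 0.204) and 0.260 without them, so it rested on those libraries. HLA-DRB1 and HLA-DPA1 had r of 0.645 and 0.642 (exact permutation p 0.117 and 0.147, adjusted 0.154 and 0.166; rho 0.714 and 0.600, exact permutation p 0.136 and 0.242, adjusted 0.204 and 0.311), and 0.221 and -0.131 without them. HLA-DMA had r of 0.761 (exact permutation p 0.119, adjusted 0.154; rho 0.486, p 0.356, adjusted 0.4001), which turned to -0.855 without them. RFX5 had r of 0.396 (exact permutation p 0.447, adjusted 0.447; rho 0.257, p 0.658, adjusted 0.658) and -0.315 without them. Each side of the IL1B split holds 3 siNC libraries, too few for a value of its own. In siZCC no r is given, since CIITA there fell into 2 sides that did not overlap.

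**Figure D4:**
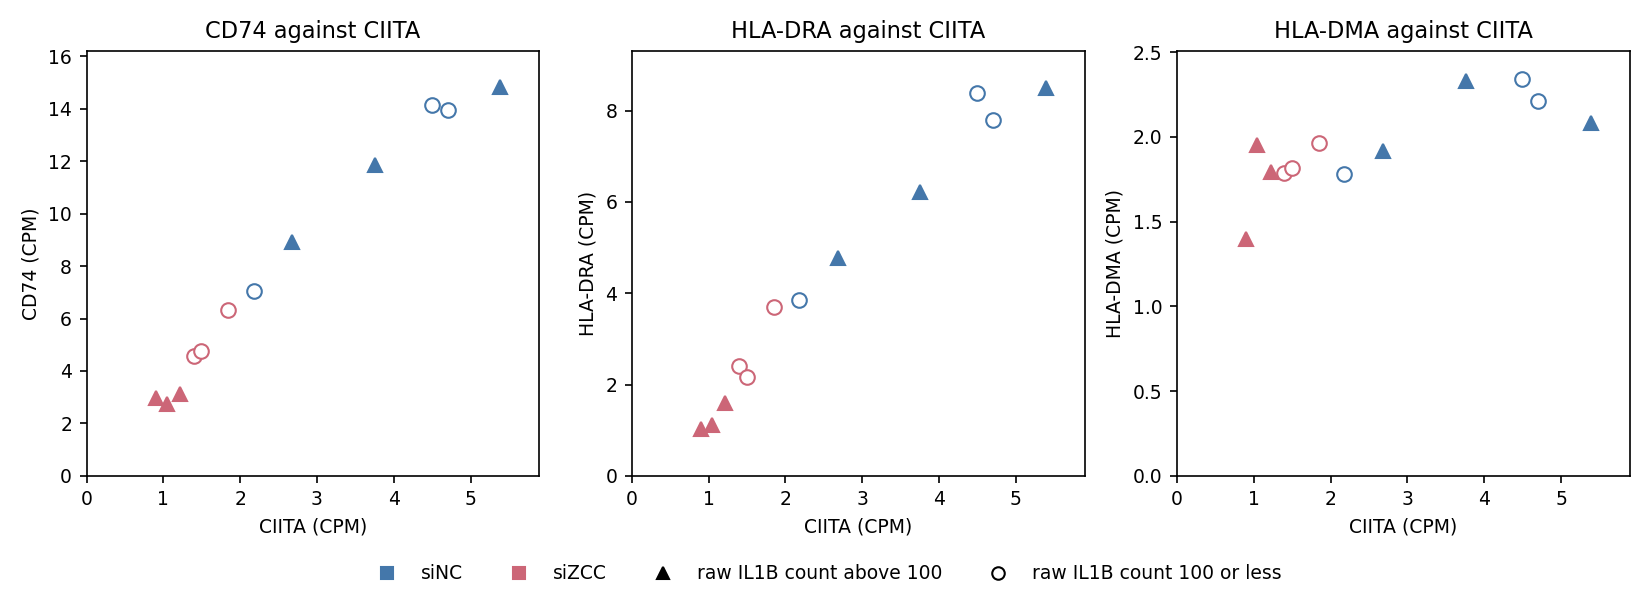
CPM of CD74, HLA-DRA and HLA-DMA (vertical axes) against CIITA (horizontal axes), 1 point per library, coloured by siRNA group, with filled triangles for a raw IL1B count above 100. CD74 and HLA-DRA lie along a line with CIITA over both groups, while HLA-DMA stays between 1.397 and 2.34 CPM.

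Deviations from the group means over all 12 libraries, given as a description, were positively related in all 36 pairs of the 9 genes other than RFX5, with r from 0.271 to 0.964 (median 0.702). They include the siZCC libraries, where 6 of the 10 genes split by IL1B side, so these r values partly restate that split. For RFX5, r ran from 0.143 to 0.524 against the other 9, also positive and overlapping the range of the 36 pairs. Outside the list, among the 12623 other genes that averaged 5 CPM or more, the deviations most like those of CD74 were in CCND2 (r 0.980), SNAI2 (0.977), ACOT9 (0.958), PDIA3 (0.957) and TRIM5 (0.956), over the same 12 libraries. CCND2 encodes a D-type cyclin, SNAI2 a zinc-finger repressor, PDIA3 a disulfide isomerase of the endoplasmic reticulum and TRIM5 a restriction factor. In each of these 5 genes, the IL1B-high siZCC libraries were below the other siZCC libraries, against 11.1% of all genes. The 5 were picked for likeness to CD74, which has this split, so it largely follows from the choice. Between siRNA groups SNAI2 fell by 0.44 (SE 0.0935) and PDIA3 fell by 0.12 (SE 0.0327) on the log2 scale, while CCND2, ACOT9 and TRIM5 did not pass, with log2 fold changes of -0.08, -0.10 and -0.09.

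Other genes of the pathway were read from 5 lists of 48 symbols, of which 46 were in the table and 40 passed the filter. In all, 9 fell and 5 rose, with a median log2 fold change of -0.02; 10.8% of all genes tested were called lower and 11.4% higher. Past the class II chains, the called changes lay between -0.69, in CTSH, and 0.28, in CST3.

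Of the other class II genes, 5 of 8 were tested and 3 fell. HLA-DRB5, another beta chain gene of HLA-DR, went from 0.344 ± 0.0975 to 0.121 ± 0.0531 CPM (SD, n = 6 each; log2 fold change -1.47, SE 0.270; edgeR adjusted p 9.62e-04), without overlap; on 4 to 17 counts, 4 of its 6 siZCC libraries reached the filter's 0.0997 CPM, so it too passed the filter through siNC. HLA-DQA1 and HLA-DQA2, alpha chains of HLA-DQ, had log2 fold changes of -1.47 (SE 0.383) and -1.44 (SE 0.374), with edgeR adjusted p of 0.0110 and 0.0109. HLA-DQA1 and HLA-DQA2 lay at 0.227 and 0.182 CPM in siNC, and their siZCC counts were 1 to 15 and 1 to 10 per library, so 2 and 1 of the 6 siZCC libraries reached that level. HLA-DQB1 had a log2 fold change of -0.63 (SE 0.437; edgeR adjusted p 0.332). HLA-DOB, the beta chain partner of HLA-DOA, stood at 0.464 ± 0.0487 CPM with siNC against 0.452 ± 0.0722 CPM with siZCC (SD, n = 6 each; log2 fold change -0.03, SE 0.134; edgeR adjusted p 0.894). HLA-DQB2 had at most 4 counts in a library, and HLA-DRB3 and HLA-DRB4 had no row. Reads of near-identical DRB and DQA genes may be split between them in ways not given in the sources used here.

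The partners of RFX5 and CIITA at the promoter were all tested, and 8 of 10 did not pass. RFXANK and RFXAP, which form the RFX complex with RFX5, had log2 fold changes of 0.04 (SE 0.0377) and 0.02 (SE 0.0436). The NF-Y subunits NFYA, NFYB and NFYC were at 0.05, -0.03 and -0.02, and CREB1 at -0.02. KAT2B, an acetyltransferase, rose from 59.2 ± 3.06 to 70.6 ± 2.96 CPM (SD, n = 6 each; log2 fold change 0.25, SE 0.0377; edgeR adjusted p 1.69e-04). CREBBP, another acetyltransferase, fell by 0.14 (SE 0.0363; edgeR adjusted p 0.0123) on the log2 scale.

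In the interferon gamma route to CIITA, 2 of 9 tested genes fell and 0 rose. IFNG itself had at most 2 counts in a library and was not tested. SOCS1, a feedback inhibitor of the route, fell by 0.43 (SE 0.131; edgeR adjusted p 0.0263) on the log2 scale, a call lost without any 1 of siNC replicates 3, 4 and 6 or siZCC replicates 4 and 6 (adjusted p 0.0525 to 0.0632). IFNGR2, a receptor chain, fell by 0.12 (SE 0.0345; edgeR adjusted p 0.0208). IRF1, which acts on the CIITA promoter, had a log2 fold change of -0.17 (SE 0.0666; edgeR adjusted p 0.0818), and JAK1, JAK2 and IFNGR1 were at 0.04, 0.01 and 0.00021.

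Among the proteases and other genes of peptide loading, 2 of 9 tested fell and 4 rose. CTSH, a cathepsin, fell from 6.49 ± 1.395 to 4.001 ± 0.617 CPM (SD, n = 6 each; log2 fold change -0.69, SE 0.129; edgeR adjusted p 0.00107). SPPL2A, the membrane protease that clears the last fragment of CD74, fell by 0.14 (SE 0.0362; edgeR adjusted p 0.00961). CST3, the inhibitor cystatin C, rose by 0.28 (SE 0.0640; edgeR adjusted p 0.00470), and CTSL rose by 0.15 (SE 0.0304; edgeR adjusted p 0.00190). CTSD rose by 0.11 (edgeR adjusted p 0.0423), a call lost in 16 of the 23 other fits, among them those leaving out any 1 library except siNC replicate 3 and siZCC replicate 2 (adjusted p 0.0565 to 0.0962); CTSB, named after its value was seen, rose by 0.08 (edgeR adjusted p 0.0487), a call lost in 17 of the 23, among them those leaving out any 1 library except siNC replicate 3 and siZCC replicates 2 and 5 (adjusted p 0.0576 to 0.138). CTSS, the protease that cuts CD74 in professional antigen-presenting cells, had a log2 fold change of -0.23 (SE 0.138; edgeR adjusted p 0.260), and IFI30 had at most 14 counts in a library. Of the genes of CD74 as a receptor, of class II turnover and of co-stimulation, 1 of 7 tested passed. That was CD44, which signals with CD74, and which fell from 183 ± 31.2 to 124 ± 18.5 CPM (SD, n = 6 each; log2 fold change -0.56, SE 0.106; edgeR adjusted p 0.00118). MIF, the ligand of CD74, was at 0.07 (SE 0.0511; edgeR adjusted p 0.328).

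**Figure D5:**
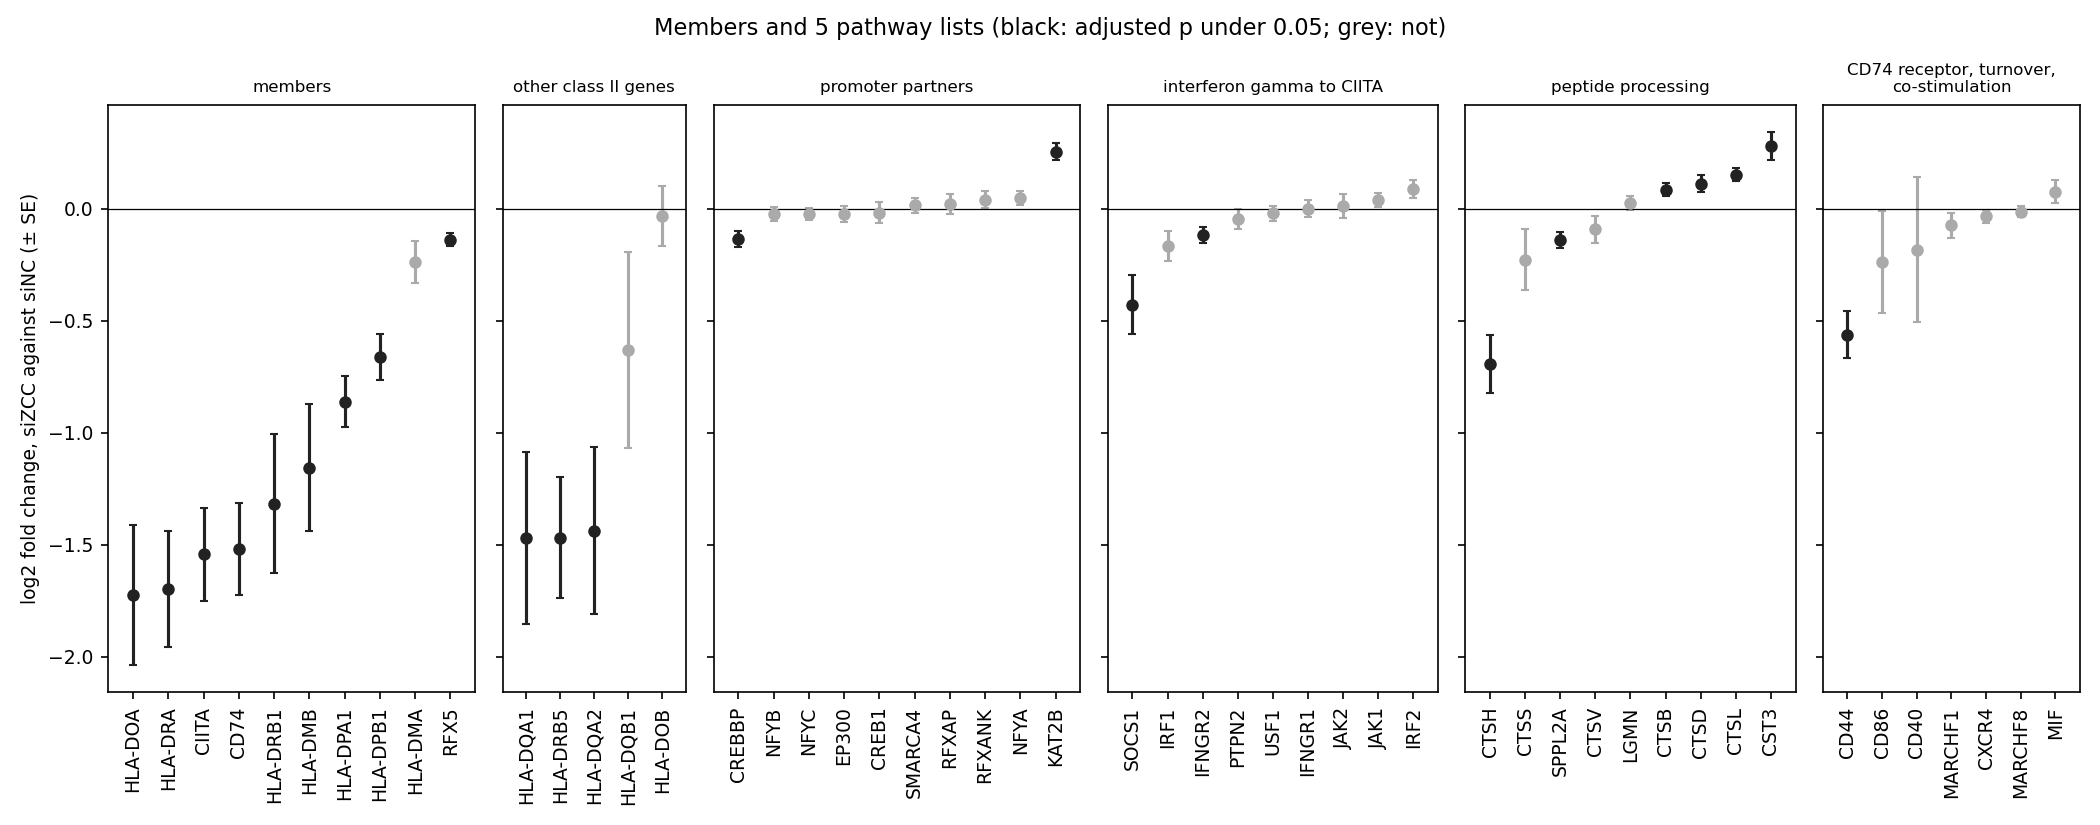
Log2 fold change of siZCC against siNC with its SE for the 10 genes and for the 40 tested genes of 5 pathway lists; black points have an adjusted p under 0.05. CD74, CIITA, HLA-DRA, HLA-DRB1, HLA-DMB and HLA-DOA lie below -1, HLA-DPA1 and HLA-DPB1 at -0.86 and -0.66, whereas the promoter partners lie between -0.14 and 0.25.

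Markers of cells that could carry class II genes were read beside these results. Of 15 microglia and macrophage markers, 8 were tested and 0 passed, beside 22.2% of all genes called in either direction. Some of those tested had few counts, such as ITGAM (11 to 44 per library) and TYROBP (18 to 50), so changes could be missed. The summed level of the 15 ran from 5.90 to 7.80 CPM in siNC and from 5.496 to 8.998 CPM in siZCC. None was at 0 in all libraries, CD14 was the most abundant at 2.28 CPM, and P2RY12, C1QA, C1QB and C1QC had at most 10 counts in any library. Of 9 B and dendritic cell markers, 3 were tested and 0 passed, beside the same 22.2% of all genes. Their sums were 18.0 to 22.8 CPM in siNC and 14.9 to 20.95 CPM in siZCC. Of these, 6 had at most 10 counts in any library, MS4A1 and CD1C among them, and nearly all of the sum was PAX5, which the developing brain also expresses. The summed macrophage markers overlapped between the groups, but many of these markers had few counts, so the sum does not measure the number of such cells. Whether the number of cells carrying class II genes differed was not tested.

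Some vascular and mesenchymal markers were called, beside 22.2% of all genes. Of 10 mural cell and fibroblast markers, all tested, 6 fell and 1 rose, with summed levels of 482 to 826 CPM in siNC and 366 to 572 CPM in siZCC. ACTA2, the most abundant, fell from 214 ± 22.2 to 144 ± 19.5 CPM and PDGFRB rose from 83.5 ± 3.22 to 111.5 ± 10.2 CPM (SD, n = 6 each). Of 8 endothelial markers, 6 were tested and 2 fell, TEK by 0.75 (SE 0.113) and CLDN5 by 0.64 (SE 0.0867) on the log2 scale, with sums of 12.97 to 18.2 and 9.22 to 11.3 CPM. PECAM1, CDH5, VWF and ERG were near the limit of counting, at up to 51, 17, 17 and 4 counts in a library. Of the 8 astrocyte markers 3 rose and 1 fell, of the 9 neuron markers 2 fell, and of the 8 progenitor markers 3 rose and 1 fell. Sums ran from 1637 to 1860 and 1704 to 2025 CPM for astrocytes, from 2511 to 2911 and 2288 to 2649 CPM for neurons, and from 5751 to 6132 and 5802 to 6327 CPM for progenitors. The part of these markers in the class II values was not tested.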

How the data were processed

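The authors deposited whole-number counts per gene symbol, 1 column per library, analysed as deposited. The submitters' processing notes name bcl2fastq 2.17, STAR 2.7.6a, featureCounts 2.0.1 and GRCh38; annotation, strand setting and treatment of multi-mapped reads are not given in the sources used here. Groups and replicate numbers came from sample titles. Labels do not say that replicates were separate cultures, so p-values measure the spread between these samples.

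Genes passing edgeR's filterByExpr (24671) were fitted over 12 libraries with TMM factors and the quasi-likelihood test (R 4.3.3, edgeR 4.0.16), with Benjamini-Hochberg adjustment over all genes and a threshold of 0.05. SE is the fold change divided by the square root of F; log2 CPM uses a prior count of 2. The procedure was tested on simulated data. Alternatives used DESeq2 1.42.0 and limma 3.58.1. Correlations used Python 3.11.15 with scipy 1.17.1. Positions and exon lengths came from GENCODE v29 (GRCh38).

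Members and lists were chosen with earlier results of these data known, and some listed genes are not reported here. The text names the 10 genes, ZCCHC17, IL1B, up to 3 genes per list and direction with the smallest adjusted p under 0.05, the most abundant marker per list and 5 genes most like CD74; others were named after their values were seen. Over all genes kept, same-numbered libraries deviated with correlations from -0.077 to 0.018. Whether equal numbers mark a shared culture or day is not stated, and these correlations do not settle it for single genes. The main fit therefore used no block, and the replicate block is given as an alternative.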

Additional observations from a re-analysis of the deposited data

Results flagged for a closer look

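The highest and lowest library of each group of 6 were compared with the rest for the named genes, 60 groups in all. In 2 of them 1 extreme library stood apart by Dixon's test at the 95% level, which chance alone does in about 1 in 20 groups, here 3.0. HLA-DMA was lowest in siZCC replicate 5, at 0.50 in log2 CPM against 0.85 to 0.99 in the others; without that library its log2 fold change was -0.18, and it did not pass with or without it. KAT2B was lowest in siNC replicate 3, at 5.74 against 5.87 to 5.95, and kept its call without it at 0.23.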

How the results depend on the processing

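The 9 calls among the 10 genes became 7 of 8 tested with a mean count of at least 50, and 10 under the replicate block, without siNC replicate 5 and after thinning (chosen after seeing the data), HLA-DMA being the gene added. Leaving out single libraries gave 9 to 10 such calls, 4484 to 5626 over all genes and 11 to 14 in the pathway lists. The replicate block gave 4902 calls over all genes and 11 in the pathway lists, where SOCS1, CTSD and CTSB lost theirs. Fits of 6 libraries, by construction with fewer samples, gave 2043 calls over all genes and 7 in the pathway lists among the IL1B-high libraries, and 1602, 3 and, for the 10 genes, 5 among the others. CCND2, not called, turned from -0.08 to 0.011 among the latter. All 10 genes kept a negative fold change in every fit that tested them. Depth limits HLA-DOA, HLA-DMB, HLA-DRB5 and the HLA-DQ genes most.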
